A study of Homo sapiens with 8 samples.

Results

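The genes described here are the 5 subunits of the transcription factor NF-kB and 5 proteins that switch it on or hold it off. They were taken by gene symbol, NFKB1, NFKB2, REL, RELA, RELB, CHUK, IKBKB, IKBKG, MAP3K14 and TRAF3. All 10 were among the 16608 genes with a read count in each of 8 libraries, out of 17849 genes listed in any table, and all 10 passed the filter on low counts. The cells were SupB15, an established line of B-cell precursor acute lymphoblastic leukaemia that carries the BCR-ABL1 fusion. Total RNA was sequenced after 4 treatments, with 2 independent samples each. One group received 1035 at 2 µM for 36 h and then doxorubicin at 0.1 µM for 10 h. Another received 1035 alone at 2 µM for 46 h, another doxorubicin alone at 0.1 µM for 10 h, and the vehicle group DMSO for 46 h. The series title names an HDAC inhibitor, which keeps histones acetylated, and 1035 is the only agent in the labels besides doxorubicin and DMSO. Doxorubicin is an anthracycline that damages DNA through topoisomerase II. Exposure times differ between groups. Doxorubicin alone lasted 10 h and DMSO 46 h, so doxorubicin and treatment time cannot be told apart in that comparison. The labels do not say if 1035 was washed out before doxorubicin was added, so the end of 1035 exposure and the addition of doxorubicin cannot be told apart.

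NF-kB works as pairs of its subunits. In the canonical arm, the kinase complex of IKBKB, CHUK and the scaffold IKBKG marks inhibitor proteins such as NFKBIA for destruction, which frees pairs built mainly from RELA, REL and the processed product of NFKB1. In the alternative arm, TRAF3 keeps the kinase MAP3K14, also called NIK, at a low level; once TRAF3 is removed, MAP3K14 activates CHUK, and the NFKB2 precursor is trimmed to a form that pairs with RELB. In B cells the alternative arm is known for survival signals from receptors such as CD40 and the BAFF receptor. NFKB1, RELA, REL, IKBKB and IKBKG are grouped here as the canonical arm, and NFKB2, RELB, MAP3K14, TRAF3 and CHUK as the alternative arm, although CHUK serves both.

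Several of these genes carry the kappaB motif, the DNA letters that NF-kB binds, near their own start. The motif, in its usual 10-letter degenerate form and on both strands, was searched in windows of 300 bases, 250 before and 50 after each RefSeq transcript start of GRCh38.p14. It was present in 2075 of 35116 windows, or 5.91%, and in at least 1 window of 1937 of 27305 genes, or 7.09%. Of the 10 genes, 8 matched the table, and 4 of these held a match: NFKB1, NFKB2, REL and TRAF3. RELB and IKBKB had no window there and were not searched. The windows with a match of NFKB2, the gene with the widest range of levels here, and of NFKB1, which changed the other way after 1035, are shown, without a further window of each gene that holds no match, as read on the plus strand, which is the strand of both genes, with the matched letters in capitals.
NFKB2, chr10:102394328-102394627: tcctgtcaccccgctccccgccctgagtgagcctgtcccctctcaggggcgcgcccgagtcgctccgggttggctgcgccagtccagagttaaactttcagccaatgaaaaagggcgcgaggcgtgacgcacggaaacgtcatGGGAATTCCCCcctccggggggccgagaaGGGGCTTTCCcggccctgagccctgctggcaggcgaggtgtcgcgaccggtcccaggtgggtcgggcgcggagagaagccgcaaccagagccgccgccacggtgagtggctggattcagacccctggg
NFKB2, chr10:102395455-102395754: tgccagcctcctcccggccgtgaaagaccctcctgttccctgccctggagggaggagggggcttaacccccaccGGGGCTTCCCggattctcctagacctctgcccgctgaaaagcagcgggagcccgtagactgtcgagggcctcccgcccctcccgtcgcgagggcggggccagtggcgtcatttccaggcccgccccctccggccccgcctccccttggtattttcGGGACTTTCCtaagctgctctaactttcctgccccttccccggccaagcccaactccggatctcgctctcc
NFKB1, chr4:102501109-102501408: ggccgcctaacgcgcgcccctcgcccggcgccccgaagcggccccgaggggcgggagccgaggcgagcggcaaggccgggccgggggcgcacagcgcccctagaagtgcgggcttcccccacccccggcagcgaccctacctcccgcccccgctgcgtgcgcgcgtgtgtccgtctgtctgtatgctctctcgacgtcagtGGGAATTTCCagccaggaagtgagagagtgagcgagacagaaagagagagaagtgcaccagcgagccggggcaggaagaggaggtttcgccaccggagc
The first NFKB2 window shown held overlapping matches on both strands from position -107 relative to the start and a further match at -78, and the other held matches at -176 and -21. The NFKB1 match began at -49. Windows with matches at 2 or more positions made up 0.738% of all windows. In REL the matched stretch was GGGAAATTCCC on chromosome 2, from -47, and in TRAF3 it was GGGGATTTCC on chromosome 14, from -33. A match describes letters only, and binding was not measured.

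Depth is given as the reads counted in the 16608 genes with counts in all 8 libraries. It was 12934237 and 11760542 reads in the libraries given 1035 then doxorubicin, 13725592 and 12055472 after 1035, 18144670 and 12398192 after doxorubicin, and 16217438 and 15570301 in DMSO. All 10 B-cell precursor markers were present, with a summed level of 2931.7 to 4273.8 CPM, the reads of a gene scaled to a common library total. Genes that define T cells (CD3D, CD3E, CD3G, CD8A), myeloid cells (CD14, S100A8, S100A9, ELANE) and stroma (COL1A2, COL3A1, DCN, LUM) were not among those with counts in all 8 libraries. The remaining markers of these cells moved with 1035: the 5 stromal ones summed to 123.0 to 142.4 CPM in the 4 libraries given 1035 and 54.6 to 61.2 CPM in the other 4. The 5 myeloid ones summed to 34.0 to 42.3 CPM with 1035 and 24.3 to 28.3 CPM without, and the 4 of T and NK cells to 71.1 to 77.5 CPM with 1035 and 87.3 to 95.0 CPM without. Members of a list did not all go 1 way: ZAP70, the most abundant of the T and NK list, averaged 48.4 CPM after 1035 and 79.6 CPM in DMSO, while TCF7 averaged 12.9 CPM after 1035 and 1.17 CPM in DMSO. Of these markers, PDGFRA had 0 reads in DMSO library 2. The B-cell precursor markers themselves summed to 2931.7 to 3116.8 CPM with 1035 and 3967.3 to 4273.8 CPM without. After 1035, 6 of the 10 fell and 3 rose against DMSO, beside 24.8% of all genes tested lower and 24.2% higher. IGLL1 fell to a mean of 243.9 CPM, against 850.9 CPM in DMSO. CD22 rose to 258.9 CPM, against 148.9 CPM in DMSO. The part of any of these shifts in the results was not tested. In bulk RNA, fewer cells of a type and less RNA per cell cannot be told apart.

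Per base of gene length, NFKB1 was the most abundant of the 10 genes, with a mean of 22.4 CPM per kilobase of gene (RPKM) over the 8 libraries, a level above that of 84.4% of the genes tested. The kinases CHUK and IKBKB followed at 12.3 and 11.3 RPKM, then RELA at 9.90, NFKB2 at 7.13, RELB at 4.52, REL at 4.32, TRAF3 at 3.88 and MAP3K14 at 3.39 RPKM. IKBKG was lowest at 0.590 RPKM. This order is over all libraries and many neighbours overlap: CHUK with IKBKB, and RELB, REL, TRAF3 and MAP3K14 each with the next. NFKB2 spans 3.30 to 12.3 RPKM and lay above RELA in both libraries given 1035 then doxorubicin, at 11.5 and 12.3 RPKM, against 10.3 and 10.9 RPKM for RELA. Between treatments, NFKB2 had the widest range, its highest group mean in CPM being 3.16 times its lowest, ahead of RELB at 2.03 times. IKBKB had the narrowest, at 1.02 times.

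**Figure D1:**
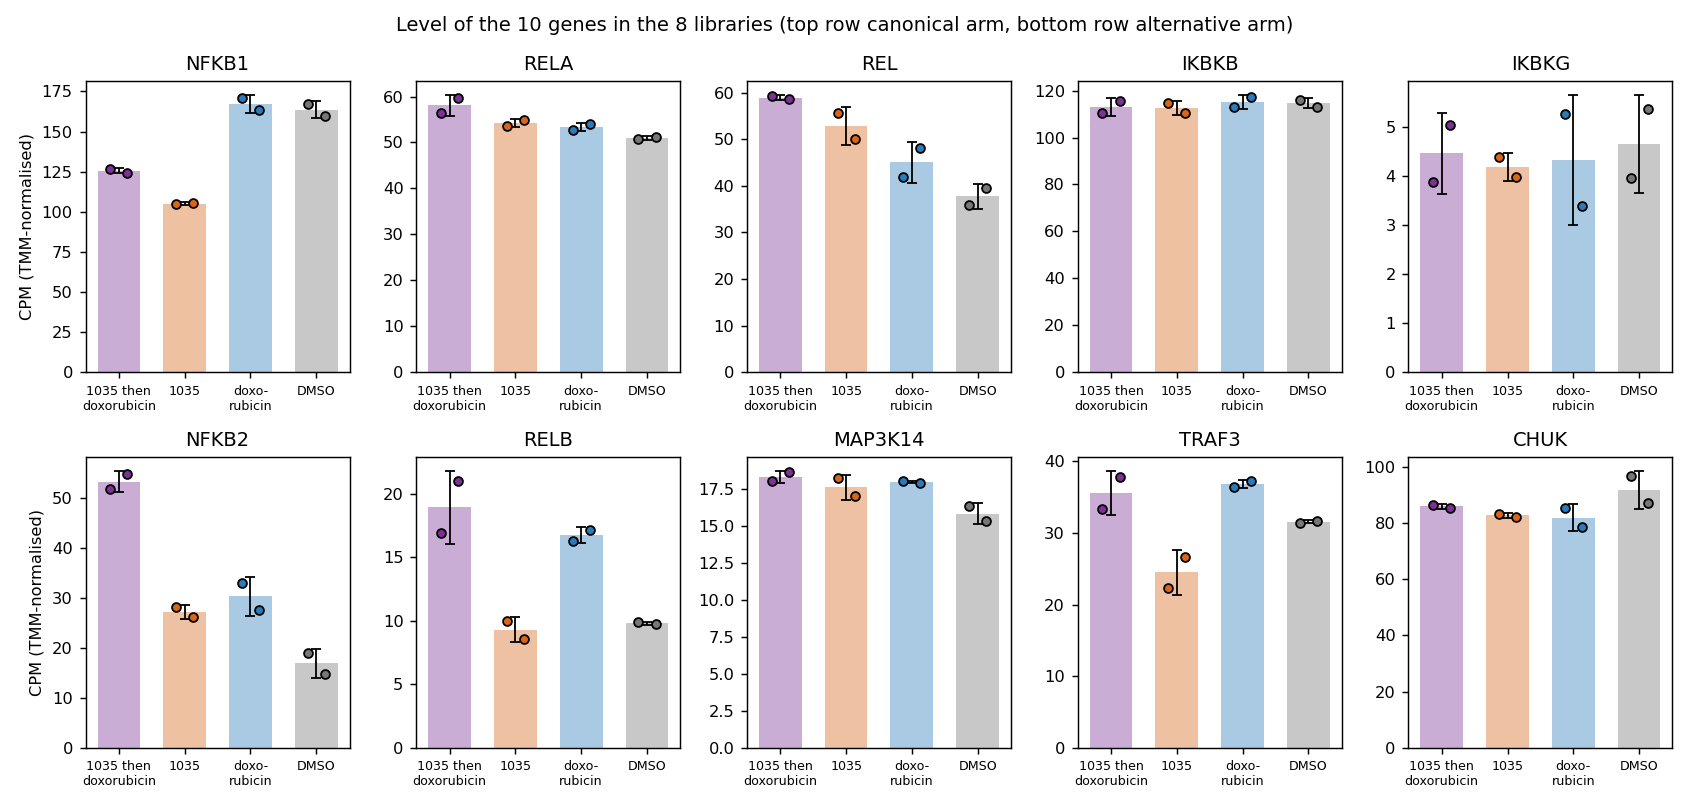
Level of each of the 10 genes in CPM in every library, with groups ordered from 1035 then doxorubicin to DMSO, 1 point per library, bars at the mean and error bars of 1 SD (n = 2). NFKB2 lies at 51.8 and 54.9 CPM after 1035 then doxorubicin and at 19.0 and 14.8 CPM in DMSO, while IKBKB stays between 110.4 and 117.3 CPM.

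After 1035 alone, the subunit genes moved apart. NFKB2 and REL rose, NFKB1 and TRAF3 fell, and the other 6 genes did not pass the test. These 4 of 10 stand beside 49.0% of all 16320 genes tested that changed in the same comparison (edgeR quasi-likelihood test, false discovery rate 0.05), so the count itself is near the background. By direction, 24.2% of all genes rose and 24.8% fell, beside 2 and 2 of the 10; scaling by total counts alone gave 28.7% and 19.8%. NFKB1, whose product is the precursor p105 and the mature p50, had 104.5 and 105.6 CPM after 1035, against 167.3 and 159.9 CPM in DMSO. Its level fell by 0.64 ± 0.06 on the log2 scale (SE; edgeR adjusted p = 1.3e-11). NFKB2, the precursor of the alternative arm, went the other way.

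NFKB2 had 28.2 and 26.2 CPM after 1035, against 19.0 and 14.8 CPM in DMSO. The groups did not overlap, and the log2 fold change was 0.69 ± 0.11 (SE; edgeR adjusted p = 2.6e-06). REL, a subunit with a strong activation domain that is prominent in lymphocytes, had 55.7 and 50.0 CPM after 1035, against 35.9 and 39.6 CPM in DMSO, a log2 fold change of 0.49 ± 0.08 (edgeR adjusted p = 6.4e-06). TRAF3, the brake on MAP3K14, had 22.3 and 26.7 CPM after 1035, against 31.4 and 31.7 CPM in DMSO. It fell by 0.37 ± 0.10 on the log2 scale (edgeR adjusted p = 0.0012), but without 1035 replicate 1 it fell by 0.24 and did not pass (edgeR adjusted p = 0.0823).

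RELA, the main activating subunit of the canonical arm, had 53.6 and 54.9 CPM after 1035, against 50.7 and 51.2 CPM in DMSO (log2 fold change 0.09, 95% interval -0.06 to 0.24). RELB, the partner of processed NFKB2, had 10.0 and 8.61 CPM after 1035, against 9.88 and 9.72 CPM in DMSO (0.07 lower on the log2 scale, interval -0.34 to 0.20). The kinase gene IKBKB had an interval of -0.14 to 0.09, and CHUK one of -0.28 to -0.02, with an edgeR adjusted p of 0.0567 that passed without DMSO replicate 2 (0.0321) or without either doxorubicin library (0.0344 and 0.034). The interval of MAP3K14 was -0.05 to 0.37 and that of IKBKG, counted on few reads, -0.58 to 0.28. None of these 6 passed the test, and the intervals give the size of change that these libraries leave possible.

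**Figure D2:**
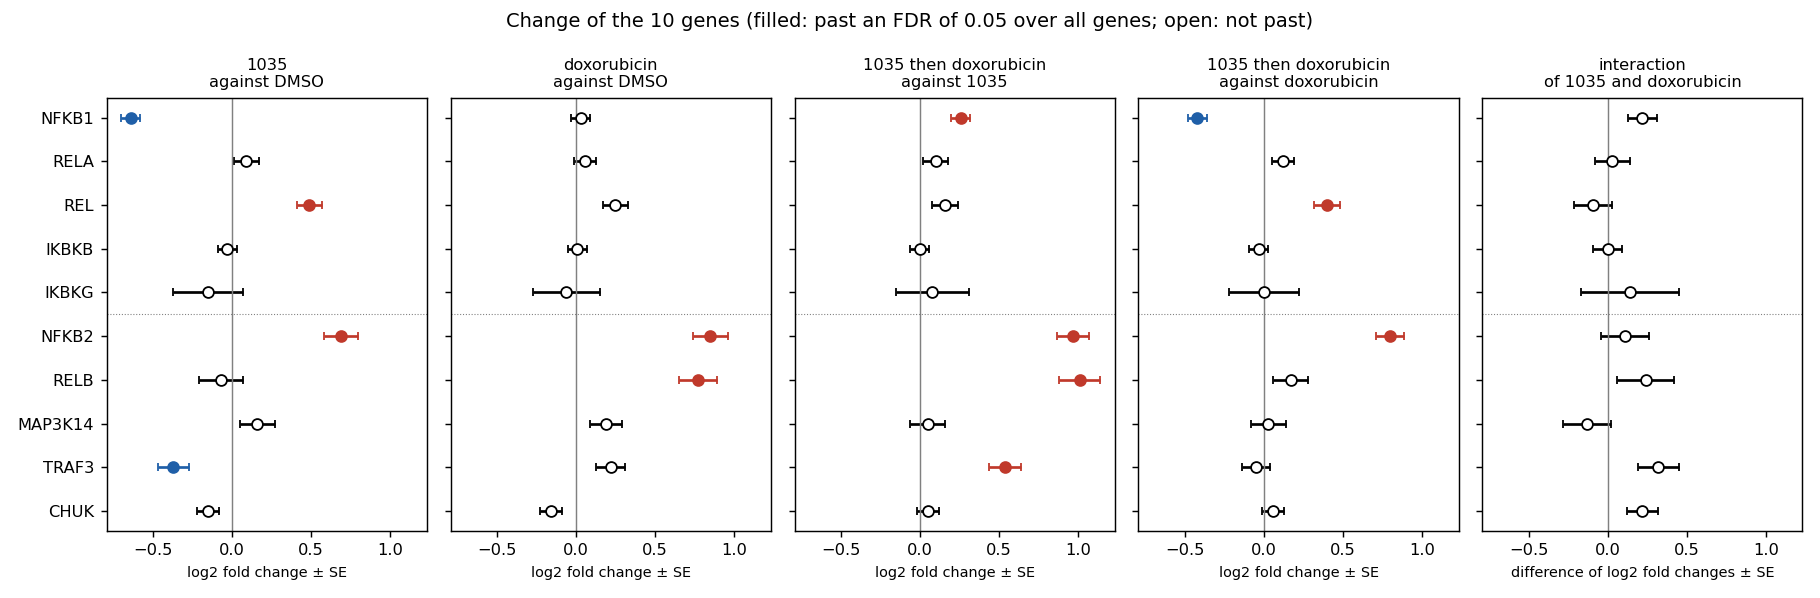
Log2 fold change with its SE for each of the 10 genes in 5 panels, the last with the difference of log2 fold changes for the interaction. Filled points are past a false discovery rate of 0.05 over all genes. The comparison of 1035 then doxorubicin against DMSO is not shown. NFKB2 is higher in each comparison of groups shown, from 0.69 to 0.97, and no gene passes in the interaction.

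After doxorubicin alone, the 2 genes that rose were NFKB2 and RELB, the subunits that pair in the alternative arm, and none of the 10 fell. In this comparison 1.33% of all genes changed, a share that ranged from 0.200% without DMSO replicate 1 to 7.15% without doxorubicin replicate 1. By direction, 0.784% rose and 0.545% fell, against 1.10% and 0.319% under total counts alone. NFKB2 had 33.1 and 27.6 CPM after doxorubicin, against 19.0 and 14.8 CPM in DMSO, a log2 fold change of 0.85 ± 0.11 (SE; edgeR adjusted p = 3.7e-06). RELB had 16.3 and 17.2 CPM after doxorubicin, against 9.88 and 9.72 CPM in DMSO, a log2 fold change of 0.77 ± 0.12 (edgeR adjusted p = 1.9e-04). For both genes the doxorubicin libraries lay above both DMSO libraries. DESeq2 gave no adjusted p for either gene with its filter on mean count, and called both without that filter (6.1e-06 and 0.0108).

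The canonical subunits showed smaller differences after doxorubicin. NFKB1 had 171.2 and 163.3 CPM after doxorubicin, against 167.3 and 159.9 CPM in DMSO, and the groups overlapped (log2 fold change 0.03, 95% interval -0.08 to 0.15). REL had 41.9 and 48.2 CPM after doxorubicin, against 35.9 and 39.6 CPM in DMSO, which did not pass (log2 fold change 0.25, edgeR adjusted p = 0.149) but passed without doxorubicin replicate 1 (0.35, edgeR adjusted p = 0.0129). TRAF3, with 36.4 and 37.2 CPM after doxorubicin against 31.4 and 31.7 CPM in DMSO, had a log2 fold change of 0.22 (edgeR adjusted p = 0.261). In the authors' deposited table of this comparison, NFKB2 and RELB have log2 fold changes of 0.76 and 0.67, and an adjusted p of 1, a value held by 12579 of its 16773 genes. Genes at that value had mean counts of up to 1002.8, and all others of 1003.4 or more. The value thus follows the mean count and does not describe the change of either gene.

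Where doxorubicin followed 1035, 4 of the 10 genes were higher than after 1035 alone, NFKB2, RELB and TRAF3 of the alternative arm and NFKB1 of the canonical arm. In this comparison 0.496% of all genes changed, with 0.181% without replicate 2 of 1035 then doxorubicin and 0.866% without doxorubicin replicate 1. NFKB2 had 51.8 and 54.9 CPM after 1035 then doxorubicin, against 28.2 and 26.2 CPM after 1035, a log2 fold change of 0.97 ± 0.10 (SE; edgeR adjusted p = 2.3e-08). RELB had 16.9 and 21.0 CPM after 1035 then doxorubicin, against 10.0 and 8.61 CPM after 1035, a log2 fold change of 1.01 ± 0.13 (edgeR adjusted p = 1.5e-06). Both genes thus stood about 2.0-fold higher, at 1.96 and 2.02 times.

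TRAF3 had 33.4 and 37.8 CPM after 1035 then doxorubicin, against 22.3 and 26.7 CPM after 1035, a log2 fold change of 0.54 ± 0.10 (edgeR adjusted p = 7.2e-04). That call was lost without 1035 replicate 1 (0.42, edgeR adjusted p = 0.0805) and without replicate 2 of 1035 then doxorubicin (0.45, edgeR adjusted p = 0.193). NFKB1 had 126.5 and 124.4 CPM after 1035 then doxorubicin, against 104.5 and 105.6 CPM after 1035. Its log2 fold change of 0.26 ± 0.06 passed narrowly (edgeR adjusted p = 0.0388) and was lost under DESeq2 (0.0849) and without any 1 of 6 libraries, those of DMSO, 1035 and 1035 then doxorubicin (edgeR adjusted p 0.0823 to 0.41). The direction of both genes was the same in each of these fits.

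**Figure D3:**
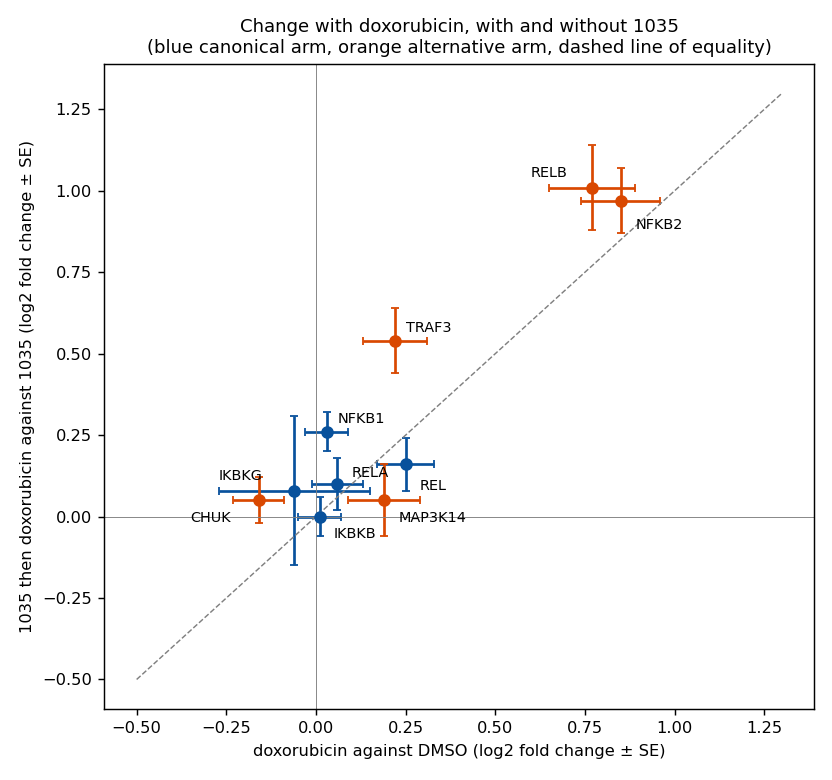
Log2 fold change of each gene with doxorubicin after 1035 (vertical axis, against 1035) and with doxorubicin alone (horizontal axis, against DMSO), with SEs and a line of equality. NFKB2 and RELB lie far from 0 on both axes, at 0.97 and 1.01 after 1035 and at 0.85 and 0.77 without it.

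Against DMSO, 1035 then doxorubicin gave the widest separation of the subunits. NFKB2 rose by 1.65 ± 0.10 on the log2 scale, or 3.15-fold (edgeR adjusted p = 1.0e-15), RELB by 0.94 ± 0.12 (2.9e-08) and REL by 0.64 ± 0.08 (2.5e-08), while NFKB1 fell by 0.38 ± 0.06 (9.8e-07). With RELA, all 5 subunits passed the test, 4 higher and 1 lower, beside 49.2% of all genes (24.5% higher and 24.7% lower, or 29.8% and 19.5% under total counts alone). Of the 5 kinases and regulators 0 passed in edgeR or DESeq2, and 0 had an unadjusted edgeR p under 0.05. Under upper quartile scaling MAP3K14 and TRAF3 passed (edgeR adjusted p = 0.0324 and 0.0355). RELA had 56.5 and 59.7 CPM after 1035 then doxorubicin, against 50.7 and 51.2 CPM in DMSO. Its log2 fold change of 0.19 ± 0.07 (edgeR adjusted p = 0.0344) was lost under DESeq2 (0.124) and without DMSO replicate 1 (0.138), DMSO replicate 2 (0.11) or replicate 2 of 1035 then doxorubicin (0.199).

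Against doxorubicin alone, 1035 then doxorubicin had higher NFKB2 (0.80 ± 0.09, edgeR adjusted p = 9.6e-09) and REL (0.40 ± 0.08, edgeR adjusted p = 1.2e-04) and lower NFKB1, which fell by 0.42 ± 0.06 (edgeR adjusted p = 2.5e-07). These 3 of 10 stand beside 43.8% of all genes, with 21.8% higher and 22.0% lower, or 25.3% and 18.8% under upper quartile scaling. RELB had 16.9 and 21.0 CPM after 1035 then doxorubicin, against 16.3 and 17.2 CPM after doxorubicin, and the groups overlapped (log2 fold change 0.17, 95% interval -0.05 to 0.40).

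Over the 4 treatments, the highest group mean of IKBKB was 1.02 times its lowest. For CHUK, MAP3K14 and IKBKG it was 1.12, 1.16 and 1.11 times, beside 1.14 times for the subunit RELA. IKBKB, the main kinase of the inhibitor proteins, had 110.4 and 115.7 CPM after 1035 then doxorubicin, 114.8 and 110.4 after 1035, 113.1 and 117.3 after doxorubicin, and 116.1 and 113.1 CPM in DMSO. CHUK, which phosphorylates the NFKB2 precursor, had 86.4 and 85.3 CPM after 1035 then doxorubicin, 83.3 and 82.0 after 1035, 85.2 and 78.6 after doxorubicin, and 96.6 and 87.0 CPM in DMSO. The libraries of all groups overlapped for IKBKB, whereas for CHUK each treated library lay below both DMSO libraries. MAP3K14 had 18.0 and 18.6 CPM after 1035 then doxorubicin, 18.2 and 17.0 after 1035, 18.0 and 17.9 after doxorubicin, and 16.3 and 15.3 CPM in DMSO, so each treated library lay above both DMSO libraries, with no comparison past the test. IKBKG, the scaffold of the canonical complex, ranged from 3.39 to 5.36 CPM over the 8 libraries, and its groups overlapped.

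Whether 1035 changed the response to doxorubicin was tested as an interaction, which 0.0184% of all genes passed. The exposure times given at the start differ within this contrast too, and their part in it was not tested. None of the 10 genes passed in edgeR or in DESeq2, and 3 had an unadjusted edgeR p under 0.05, NFKB1, TRAF3 and CHUK. For NFKB2 the log2 changes after 1035 and after doxorubicin, each against DMSO, sum to 1.54, beside 1.65 for 1035 then doxorubicin (interaction 0.11, 95% interval -0.17 to 0.40). For RELB the sum is 0.70, beside 0.94 (interaction 0.24, interval -0.11 to 0.60). For TRAF3 the sum is -0.15, beside 0.17 (interaction 0.32, interval 0.07 to 0.58, edgeR adjusted p = 0.952). For NFKB1 the sum is -0.61, beside -0.38 (interaction 0.22, interval 0.06 to 0.39). For CHUK the sum is -0.31, beside -0.10 (interaction 0.22, interval 0.03 to 0.40), and the edgeR adjusted p of both genes was 0.952.

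Set side by side, the arms had similar counts after 1035, where 2 of 5 genes changed in the alternative arm, with a median log2 fold change of -0.07, and 2 of 5 in the canonical arm, with a median of -0.03. With doxorubicin alone, 2 of 5 alternative genes rose (median 0.22) and 0 of 5 canonical genes (median 0.03, with 1 at an unadjusted edgeR p under 0.05 and 0 called by DESeq2 without independent filtering). With doxorubicin after 1035, 3 of 5 alternative genes rose (median 0.54) and 1 of 5 canonical genes (median 0.10), where the median over all genes was 0.00. The shares of all genes called were 49.0%, 1.33% and 0.496% in these 3 comparisons. Of the calls in the last, that of NFKB1 and that of TRAF3 were lost in some of the fits given above. Leaving out CHUK, which serves both arms, gave alternative medians of 0.05, 0.49 and 0.76 in these 3 comparisons. The difference between the arms was not tested.

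The mix of subunit transcripts shifted with these changes. NFKB2 made up 21.8 and 22.2% of the summed RPKM of the 5 subunits after 1035 then doxorubicin, 15.3 and 14.6% after 1035, 13.8 and 11.8% after doxorubicin, and 9.08 and 7.36% in DMSO. NFKB1 made up 38.2 and 36.0% after 1035 then doxorubicin, 40.7 and 42.1% after 1035, 51.1 and 50.1% after doxorubicin, and 57.2 and 56.8% in DMSO. The 4 groups did not overlap for either gene. The sum itself was 52.9 and 55.1 RPKM after 1035 then doxorubicin, 41.0 and 40.0 after 1035, 53.4 and 52.0 after doxorubicin, and 46.6 and 44.9 RPKM in DMSO.

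**Figure D4:**
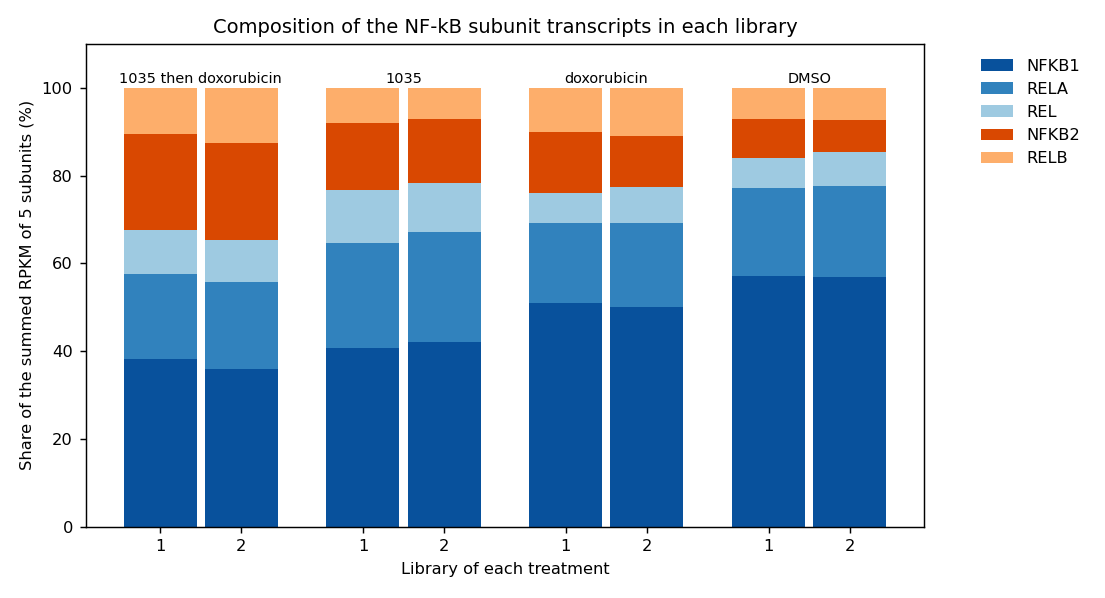
Share of each NF-kB subunit in the summed RPKM of all 5, in percent, for every library. The NFKB2 share is 21.8 and 22.2% after 1035 then doxorubicin and 9.08 and 7.36% in DMSO, while the NFKB1 share is 38.2 and 36.0% after 1035 then doxorubicin and 57.2 and 56.8% in DMSO.

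The ratio of NFKB1 to NFKB2 in RPKM was 1.75 and 1.62 after 1035 then doxorubicin, 2.65 and 2.88 after 1035, 3.70 and 4.23 after doxorubicin, and 6.30 and 7.72 in DMSO. The ratio of RELA to RELB was lower in every library given doxorubicin: it was 1.86 and 1.58 after 1035 then doxorubicin and 1.79 and 1.74 after doxorubicin, against 2.97 and 3.54 after 1035 and 2.85 and 2.92 in DMSO. Both libraries given 1035 alone lay above both DMSO libraries, and the ratios were not tested. Among 12067 genes with a mean count of at least 50, those whose log2 CPM followed NFKB2 most closely over the 8 libraries were TNFSF9, IDS and JUN, at Euclidean distances of 0.43, 0.65 and 0.66 after centring. For NFKB1 they were TRUB2, ENC1 and KAT2A, at 0.11, 0.13 and 0.14.

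Some of the 10 genes share their locus with others, and whether reads were counted by strand is not known here. IKBKG has the pseudogene IKBKGP1, so its level is uncertain. CHUK overlaps ERLIN1 and REL overlaps AC010733.2, each on the same strand, and MAP3K14 overlaps its antisense gene MAP3K14-AS1, which had 6 to 17 reads. RELA overlaps AP001362.2 on the opposite strand. NFKB1, NFKB2, RELB and IKBKB overlap no other gene in GENCODE v29.

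The counts of the surrounding lists are of transcripts, and after 1035 they stand beside 24.2% of all genes higher and 24.8% lower. Among the genes of proteins that restrain NF-kB, 5 of 10 rose and 1 fell after 1035, with a list median of 0.20, against a median of 0.01 over all genes. With 1 library left out, 3 to 5 rose and 1 or 2 fell. NFKBIA, the inhibitor that IKK destroys, was the one that fell. It had 67.8 and 71.6 CPM after 1035, against 98.5 and 96.2 CPM in DMSO, and fell by 0.48 ± 0.07 on the log2 scale (edgeR adjusted p = 5.7e-08). CYLD, a deubiquitinase that opposes IKK activation, rose by 0.78 ± 0.07 (3.5e-12), BCL3 by 2.37 ± 0.43 (1.2e-05) and NFKBID by 0.77 ± 0.18 (3.1e-04), the last 2 being nuclear members of the inhibitor family. With doxorubicin after 1035, 3 of 10 rose relative to 1035 and 0 fell, beside 0.349% of all genes higher and 0.147% lower. Among the 3, NFKBIA rose by 1.07 ± 0.06 (edgeR adjusted p = 2.4e-15).

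Of 5 genes whose proteins control MAP3K14, 3 rose after 1035 and 0 fell (2 or 3 and 0 or 1 with 1 library left out), with a median of 1.36, beside 24.2% of all genes higher. TRAF1 rose by 1.48 ± 0.16 (edgeR adjusted p = 3.2e-10) and OTUD7B, a deubiquitinase that protects TRAF3, by 1.36 ± 0.19 (1.6e-07). TRAF2 and BIRC2, which join TRAF3 in the complex that marks MAP3K14 for destruction, did not pass, with log2 fold changes of -0.18 and 0.10. BIRC3, the close relative of BIRC2, was counted on few reads, 38 and 44 after 1035 then doxorubicin, 4 and 9 after 1035, 26 and 17 after doxorubicin, and 0 and 2 in DMSO, and it was higher in all 5 comparisons of groups.

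Of 7 tested receptors that signal through the alternative arm, 4 rose after 1035 and 0 fell (median 1.29), beside 24.2% of all genes higher: CD40 by 2.14 ± 0.15 (edgeR adjusted p = 6.5e-15), TNFRSF12A by 1.57 ± 0.32 (6.5e-05), CD27 by 1.29 ± 0.24 (2.1e-05) and TNFRSF11A, which had 10 and 14 reads after 1035, against 2 and 1 in DMSO. The other 3 did not pass. TNFRSF13C, the BAFF receptor, averaged 6.77 CPM after 1035 and 7.29 CPM in DMSO. TNFRSF1B averaged 56.9 CPM after 1035 and 55.1 CPM in DMSO, and LTBR 4.69 and 3.80 CPM. Of 6 tested ligands of the TNF family that signal to NF-kB by either arm, out of 10 listed, 3 rose and 0 fell (median 0.59): TNF by 2.06 ± 0.12 (1.4e-17), LTB by 1.15 ± 0.16 (1.2e-07) and LTA by 1.39 ± 0.56 (0.0377). LTA was near the floor, with means of 1.06 CPM after 1035 and 0.390 CPM in DMSO. DESeq2 called 2 of the 6 higher. CD70, the ligand of CD27, had 21.7 and 20.0 CPM after 1035, against 22.4 and 22.4 CPM in DMSO, which did not pass (edgeR adjusted p = 0.397). With doxorubicin after 1035 it had 35.0 and 32.2 CPM, against 21.7 and 20.0 CPM after 1035, and rose by 0.69 ± 0.10 (9.3e-06).

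Upstream of the canonical kinases, 8 of 18 genes rose and 5 fell after 1035 (median 0.16), beside 24.2% higher and 24.8% lower of all genes. IRAK1, a kinase of Toll-like and interleukin-1 receptor signalling, fell by 0.94 ± 0.06 (edgeR adjusted p = 2.0e-15), and MALT1, a protease of the antigen receptor route, fell by 0.64 ± 0.07 (2.6e-10). TNFRSF1A, the main receptor of TNF, rose by 0.81 ± 0.09 (5.9e-10). Of the 5 IKK-related kinases and adaptors 2 rose and 0 fell (median 0.06), TBKBP1 by 0.46 ± 0.07 (1.8e-06) and IKBKE by 0.21 ± 0.09 (0.0465). DESeq2 called 1 of the 5 higher. TBK1 and AZI2 did not pass, at -0.09 and -0.06.

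The genotoxic route carries a DNA damage signal to IKBKG. After 1035, 2 of its 12 genes rose and 5 fell (median -0.02), beside 24.2% higher and 24.8% lower of all genes. Those that fell include SENP1 by 0.48 ± 0.07 (edgeR adjusted p = 2.0e-07), XIAP by 0.42 ± 0.07 (2.0e-06), PIDD by 0.58 ± 0.09 (2.5e-06) and RIPK1 by 0.59 ± 0.10 (2.6e-06). With doxorubicin alone 0 of 12 passed in edgeR or DESeq2, with 3 at an unadjusted edgeR p under 0.05. Of the 10 genes that add or remove acetyl groups on RELA or read them, 5 rose and 3 fell after 1035 (median 0.15). HDAC1 rose by 0.32 ± 0.06 (1.0e-05), while the deacetylase SIRT1 fell by 0.89 ± 0.08 (5.1e-12) and the acetyltransferase CREBBP fell by 0.45 ± 0.07 (2.3e-06). With doxorubicin alone 3 of these 10 rose in edgeR and 2 in DESeq2, and 0 fell, beside 1.33% of all genes changed. In edgeR, CREBBP rose by 0.36 ± 0.07 (edgeR adjusted p = 0.00304), as did EP300. The EP300 libraries had 97.3 and 115.1 CPM after doxorubicin, against 77.1 and 87.1 CPM in DMSO.

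Of 27 listed NF-kB target genes, 18 were tested. After 1035, 12 rose and 4 fell (median 0.59), beside 24.2% and 24.8% of all genes, among them CCR7, a homing receptor, by 3.25 ± 0.17 (edgeR adjusted p = 5.7e-19), and CD69, an activation marker, by 1.44 ± 0.12 (3.6e-13), both higher. With doxorubicin alone 4 of 18 rose (2 to 6 with 1 library left out) and 0 fell (median 0.20), beside 1.33% of all genes changed, NFKBIA, BIRC3, CD83 and CD69. With doxorubicin after 1035, 8 of 18 rose (4 to 10 with 1 library left out) and 0 fell (median 0.35, against 0.00 over all genes), beside 0.496% of all genes changed, including TNFAIP3, a deubiquitinase that ends NF-kB signalling, by 0.74 ± 0.06 (1.2e-11), and CD69 by 0.93 ± 0.10 (1.0e-08). NFKBIA, NFKBIE, TNFAIP3, TNF, CD40, BIRC3 and TRAF1 stand in this list and in another. RIPK1 and TAB2 stand both in the list upstream of the canonical kinases and in that of the genotoxic route. The counts of the lists are therefore not independent.

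**Figure D5:**
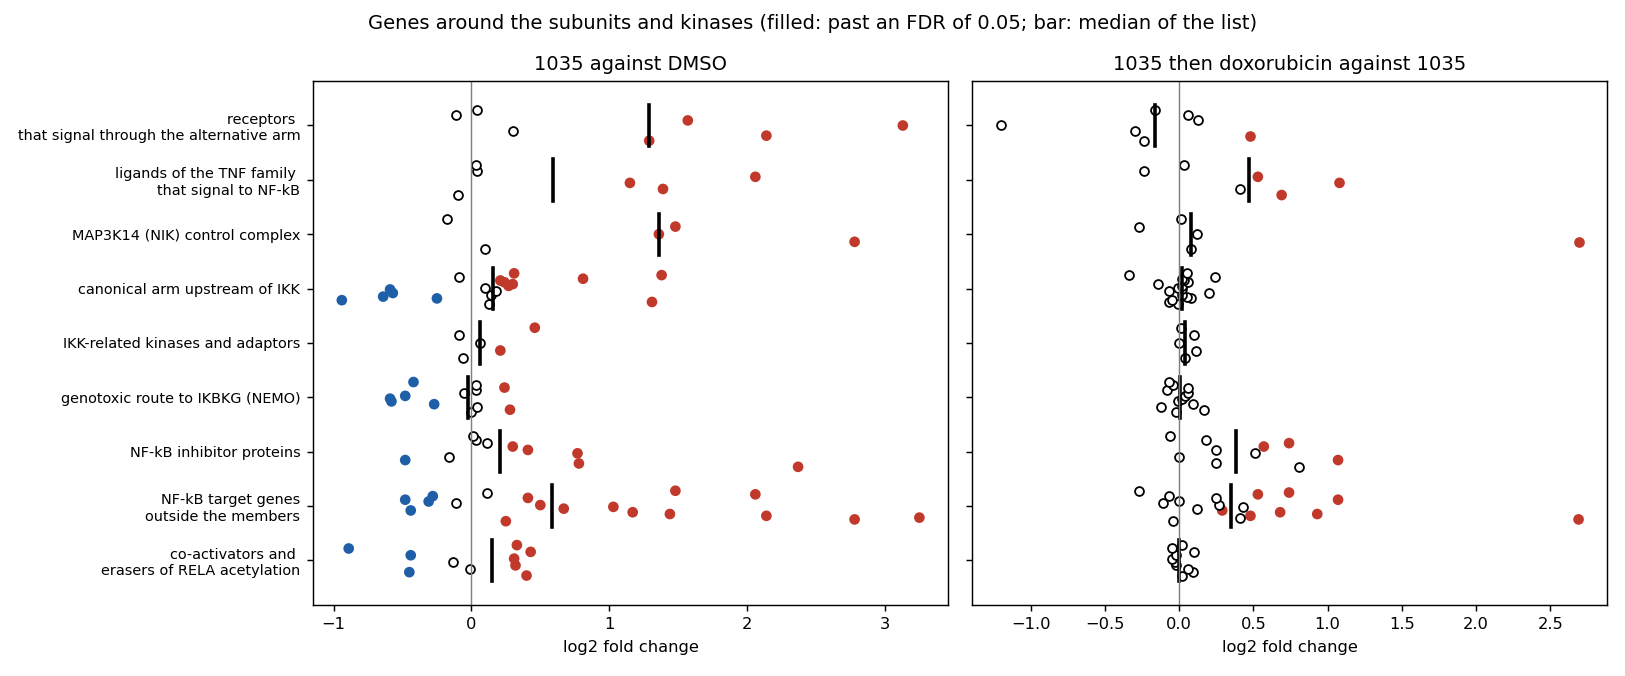
Log2 fold change of every tested gene of the surrounding lists after 1035 against DMSO (left) and after 1035 then doxorubicin against 1035 (right), with filled points past a false discovery rate of 0.05 and a bar at the median of each list. Among the NF-kB target genes, 12 of 18 rose after 1035 and 8 of 18 with doxorubicin after 1035.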

How the data were processed

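Raw read counts per gene were deposited by the authors in 4 tables that each pair 2 treatments, per the file headers. Per the submitters' processing notes, Novoalign 2.08.01, DESeq2 1.4.5 and hg19 were used; how reads were counted, on which strand and with which gene models is not stated there or in the labels. The deposited FPKM values are the authors' and were not used for tests. The deposited log2 fold changes and adjusted p-values are those of the authors' own comparisons. Per the labels, ribosomal RNA was depleted with Ribo-Zero Gold before stranded library preparation.

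The tables were merged on the gene ID, and the 132880 counts that occur in 2 of them did not differ. Genes with counts in all 8 libraries were fitted with edgeR 4.0.16 in R 4.3.3 (TMM scaling, filterByExpr, robust quasi-likelihood, 4 group means), with Benjamini-Hochberg adjustment over 16320 genes at 0.05; 288 were removed as low. The fit has 4 residual degrees of freedom, from the spread between the 2 samples of a group, pooled over groups. The p-values also rest largely on the spread of other genes, toward which each gene was drawn (median prior degrees of freedom 35.6). CPM used TMM-scaled library sizes. RPKM also used a gene length, which was worked out from the deposited counts and FPKM and taken as a median. Intervals are 95% normal intervals from the SE. Closest genes used log2(CPM + 0.5). The fit was tested on simulated data. DESeq2 1.42.0, other scalings and filters, and each library left out were alternatives. All 10 genes are named; of each list, the 4 with the smallest p after 1035 and TRAF2, BIRC2, BIRC3 and NFKBIA are named, and others were chosen after their values were seen; some genes that this rule names, and an overlap of 1 member, are not reported here. The members and lists were chosen with earlier results of these data known.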

Additional observations from a re-analysis of the deposited data

Results flagged for a closer look

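Among the inhibitors listed around the 10 genes, 2 differed in their response to 1035 with and without doxorubicin, by the edgeR interaction test. For NFKBIA the difference was 0.68 ± 0.09 on the log2 scale (SE; edgeR adjusted p = 4.3e-05, and 7.2e-08 to 0.0071 over the alternatives), with 149.9 and 143.2 CPM after 1035 then doxorubicin, 67.8 and 71.6 after 1035, 131.5 and 123.9 after doxorubicin, and 98.5 and 96.2 CPM in DMSO. For TNFAIP3 it was 0.53 ± 0.08 (edgeR adjusted p = 0.00112; lost without DMSO replicate 2, 0.51 and 0.0786, and without replicate 2 of 1035 then doxorubicin, 0.47 and 0.113), with 301.5 and 326.6 CPM after 1035 then doxorubicin, 191.6 and 185.0 after 1035, 202.3 and 200.3 after doxorubicin, and 172.6 and 176.8 CPM in DMSO. The end of exposure to 1035 and the addition of doxorubicin cannot be told apart in either.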

How the results depend on the processing

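Over 60 member results and 17 or 18 alternatives each, 1035 of 1064 values kept their side of the test, 18 lost the call and 11 gained one, in 8 of the 60 results. The sign changed in 28 values of 14 results, of which 0 had passed the test. Against DMSO, CHUK after 1035 passed with only the libraries of both groups (edgeR adjusted p = 0.0373) and without DMSO replicate 2 or either doxorubicin library (0.0321 to 0.0344). For 1035 then doxorubicin against DMSO, MAP3K14 and TRAF3 passed with upper quartile scaling (0.0324 and 0.0355), with total counts alone (0.0223 and 0.0246) and with a mean count of at least 50 (0.0407 and 0.0438). Counts over all genes moved more. For doxorubicin against DMSO, 217 genes became 134 with only the libraries of both groups and 105 in DESeq2 without independent filtering, an alternative chosen after seeing the data, and 33 to 1180 with 1 library left out. For 1035 then doxorubicin against 1035, 81 became 151 with only both groups and 30 to 143 with 1 library left out, and the member count of 4 became 2 to 4. For the interaction, 3 became 1 to 239. Replicate numbers are shared by the groups in the labels, which state no pairing, and same-numbered libraries did not deviate together (correlations -0.1 to 0.08). A replicate block gave 16 genes in the interaction and changed no member count. Without length scaling, 19 of 20 subunit shares moved by more than the spread. DESeq2 gave no adjusted p for 6 members in doxorubicin against DMSO, NFKB2 and RELB among them. IKBKG is limited by depth. Counts of the lists with 1 library left out, and all alternatives for NFKBIA and TNFAIP3, were also added after seeing the data. The cause of these shifts was not tested.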
